A study of Mus musculus with 6 samples.

Results

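The nuclear genes for subunits of the oxidative phosphorylation system were described in c-Kit+ leukemic cells sorted from mouse spleen. They were taken as all genes whose symbol starts with Nduf followed by a, b, c, s or v and a digit, is Sdha to Sdhd, or starts with Uqcr, Cox4 to Cox8 or Atp5. This gave 80 of the 22180 named genes, of which 78 encode proteins and 2, Atp5c1-ps and Uqcrh-ps1, are pseudogenes. The test covered 74 of the 78 coding genes; the other 4 coding genes and both pseudogenes lay below the filter on low levels. A further 7 coding genes with such symbols, Cox6c, Ndufb2, Ndufb4, Ndufb4b, Ndufb4c, Ndufs6 and Uqcr10, were measured by probe sets shared with another gene, and no value is given for them.

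There were 2 genotypes with 3 samples each. Chd7f/f leukemias carry floxed alleles of Chd7, which encodes a chromatin remodelling ATPase, together with Mx1-Cre and Cbfb+/56M. Control leukemias carry Mx1-Cre and Cbfb+/56M without the floxed alleles. Cbfb+/56M is a knock-in of the leukemia fusion of Cbfb and MYH11, and Mx1-Cre comes from an interferon-responsive promoter that is active in many cell types. Mice of both genotypes received the mutagen ENU and the interferon inducer pIpC, and cells were sorted at end stage, so each leukemia may carry further mutations. The comparison asks how the floxed Chd7 alleles alter expression in this leukemia. All differences are Chd7f/f minus control on the log2 scale.

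Oxidative phosphorylation takes place in the inner mitochondrial membrane. Complex I (NADH dehydrogenase) and complex II (succinate dehydrogenase) pass electrons to ubiquinone, complex III passes them to cytochrome c, and complex IV (cytochrome c oxidase) passes them to oxygen; complex V, the ATP synthase, makes ATP from the proton gradient that results. Most subunits are encoded in the nucleus, and several complex IV subunits have a second isoform known from particular tissues such as muscle, lung or testis.

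Values are RMA levels, a log2 summary of the probes of a gene after the arrays have been given equal distributions. A level is relative to the rest of its array, and levels of different probe sets cannot be compared as amounts. Kit, the sorted receptor, stood at 12.48, 11.69 and 11.90 in the Chd7f/f samples, against 11.72, 12.12 and 11.68 in the controls. Chd7 stood at 5.48, 6.50 and 5.91 in the Chd7f/f samples, against 6.17, 7.54 and 5.32 in the controls, so the genotypes overlapped, and where its probe set lies relative to the floxed part is not given in the sources used here. Control replicate 2 alone had the female pattern, with the Y-linked gene Eif2s3y at 4.43 there and between 8.72 and 9.11 elsewhere. Of the X-linked members, Ndufa1 had a value on that array inside the range of the others and Ndufb11, at 5.30, had its lowest there; the kept probe set of Cox7b, also X-linked, may not measure that gene, as described at the end. In sorted cells measured in bulk, fewer cells of a type and less RNA per cell cannot be told apart.

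Between genotypes, no oxidative phosphorylation gene passed the test. Of the 74 tested members 22 lay above their control level in Chd7f/f leukemias and 52 below it, with a median difference of -0.07; over all 15526 tested genes 56.3% were lower and the median was -0.03. For 65 of the 74 the difference was smaller than its own standard error. At an adjusted p of 0.05 (limma, Benjamini-Hochberg over all tested genes) 0 members and 0% of all genes were called, and each member's adjusted p was 0.9998. At an unadjusted p under 0.05 there were 0 members higher, where 0.696% of all genes were called, and 1 lower, Ndufc2, where 1.15% were called.

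The samples of the genotypes did not overlap for 3 members on the lower side, Atp5o, Ndufc2 and Uqcrfs1, where 4.37% of all genes did so. On the higher side there were 0 members, where 2.45% of all genes did so. These shares are near or below those of all genes. The count at an unadjusted p under 0.05 (limma) turned on single arrays. It was 0 without Chd7f/f replicate 1, where 2.18% of all genes were called, and 0 without control replicate 1, where 1.74% were. It was 2 without Chd7f/f replicate 3, where 2.18% were called, and 2 without control replicate 3, where 2.26% were; these were Ndufc2 and Cox6b2.

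**Figure D1:**
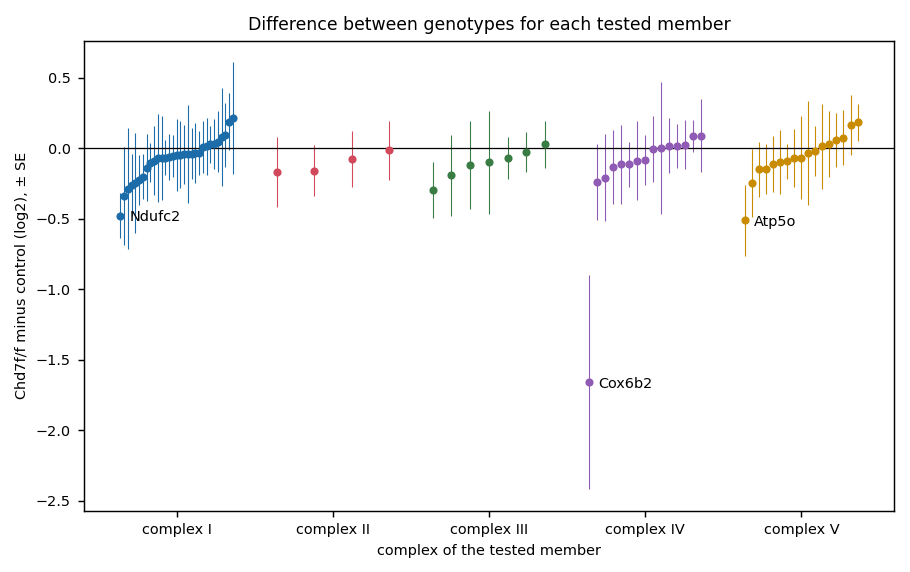
Difference between Chd7f/f and control leukemias (log2, vertical axis) for each of the 74 tested members, sorted within its complex, with bars of 1 standard error from limma. For 65 points the bar reaches 0, and Cox6b2, Ndufc2 and Atp5o have the lowest values of complexes IV, I and V.

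The subunits varied more between arrays than between genotypes, and the 5 complexes had the same array at the bottom. Chd7f/f replicate 1 was the lowest of the 6 arrays for 56 of the 74 tested members, where 27.7% of all tested genes had their lowest value on it. Control replicate 1 was the lowest for 8 members, where the share of all genes was 16.4%. The other arrays were the lowest for 4 members (Chd7f/f replicate 2, 17.9% of all genes), 2 (Chd7f/f replicate 3, 10.7%), 2 (control replicate 2, 13.7%) and 2 (control replicate 3, 13.6%). Chd7f/f replicate 1 had the highest value for 2 members, Cox6a2 and Ndufa6, where 18.7% of all genes peaked there. It was the lowest array for 23 of 31 common subunits of complex I, 4 of 4 of complex II, 6 of 7 of complex III, 8 of 10 of complex IV and 14 of 17 of complex V. These counts use the kept probe set of each gene, and the other probe sets are described at the end. The range over the 6 arrays was at least 1 for 17 members, where 22.3% of all genes had such a range.

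Relative to each gene's mean over all arrays, the common subunits of complex I averaged -0.41, 0.13 and 0.17 in the Chd7f/f samples, against -0.14, 0.12 and 0.13 in the controls. Complex II averaged -0.46, 0.16 and 0.14 in the Chd7f/f samples, against -0.07, 0.15 and 0.07 in the controls. Complex III averaged -0.50, 0.14 and 0.19 in the Chd7f/f samples, against -0.12, 0.16 and 0.13 in the controls. In all 3 the first Chd7f/f array was low, while the other Chd7f/f arrays lay at or above the controls' upper values or among them. Complex IV averaged -0.50, 0.17 and 0.20 in the Chd7f/f samples, against -0.09, 0.05 and 0.17 in the controls. Complex V averaged -0.41, 0.18 and 0.14 in the Chd7f/f samples, against -0.06, 0.05 and 0.10 in the controls. The mean of all tested genes was -0.07 on Chd7f/f replicate 1 and between -0.00051 and 0.03 on the rest, so the complexes were lower on that array than its average gene.

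**Figure D2:**
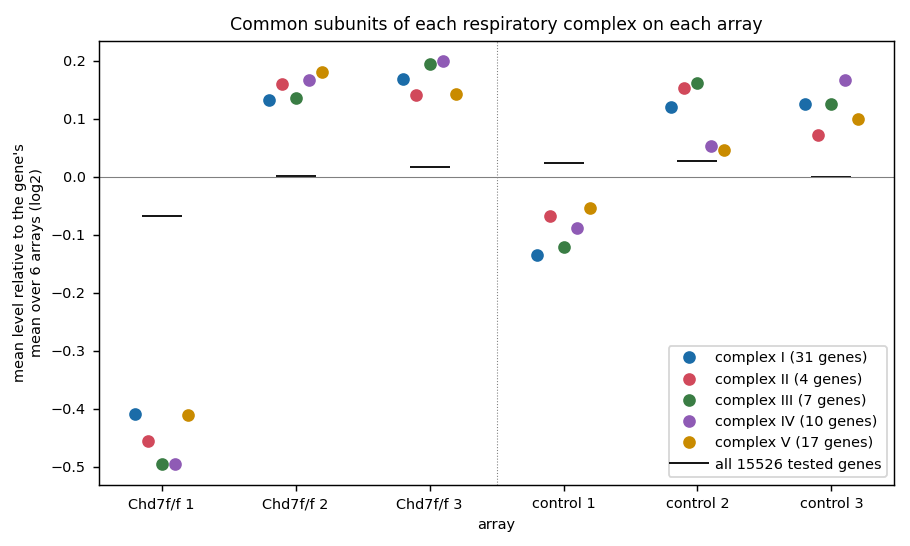
Mean log2 level of the common subunits of each respiratory complex on each of the 6 arrays, relative to the gene's mean over the arrays (points, 1 colour per complex), with the mean of all tested genes as a black bar. All 5 complexes lie between -0.50 and -0.41 on Chd7f/f replicate 1, and control replicate 1 is the lowest control array for each.

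The mean difference between genotypes was -0.07, -0.10, -0.11, -0.09 and -0.06 for complexes I to V. The standard deviation of a complex's mean was 0.32, 0.35, 0.38, 0.39 and 0.33 among Chd7f/f arrays and 0.15, 0.11, 0.15, 0.13 and 0.08 among control arrays (n = 3 each), larger than the difference in each case. The direction rests on 1 array. Leaving out Chd7f/f replicate 1 gave mean differences of 0.11, 0.10, 0.11, 0.14 and 0.13. Then 12 of the 74 members were lower, where 7807 of all 15526 tested genes were. The genotypes then did not overlap for 15 members on the higher side, where 7.88% of all genes did so, and for 3 on the lower side, where 9.03% did. Without both arrays numbered 1 the mean differences were 0.03, 0.04, 0.02, 0.07 and 0.09, and with array weights 0.02, 0.01, 0.02, 0.03 and 0.04. Without control replicate 1 they were -0.16, -0.16, -0.20, -0.15 and -0.10.

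**Figure D3:**
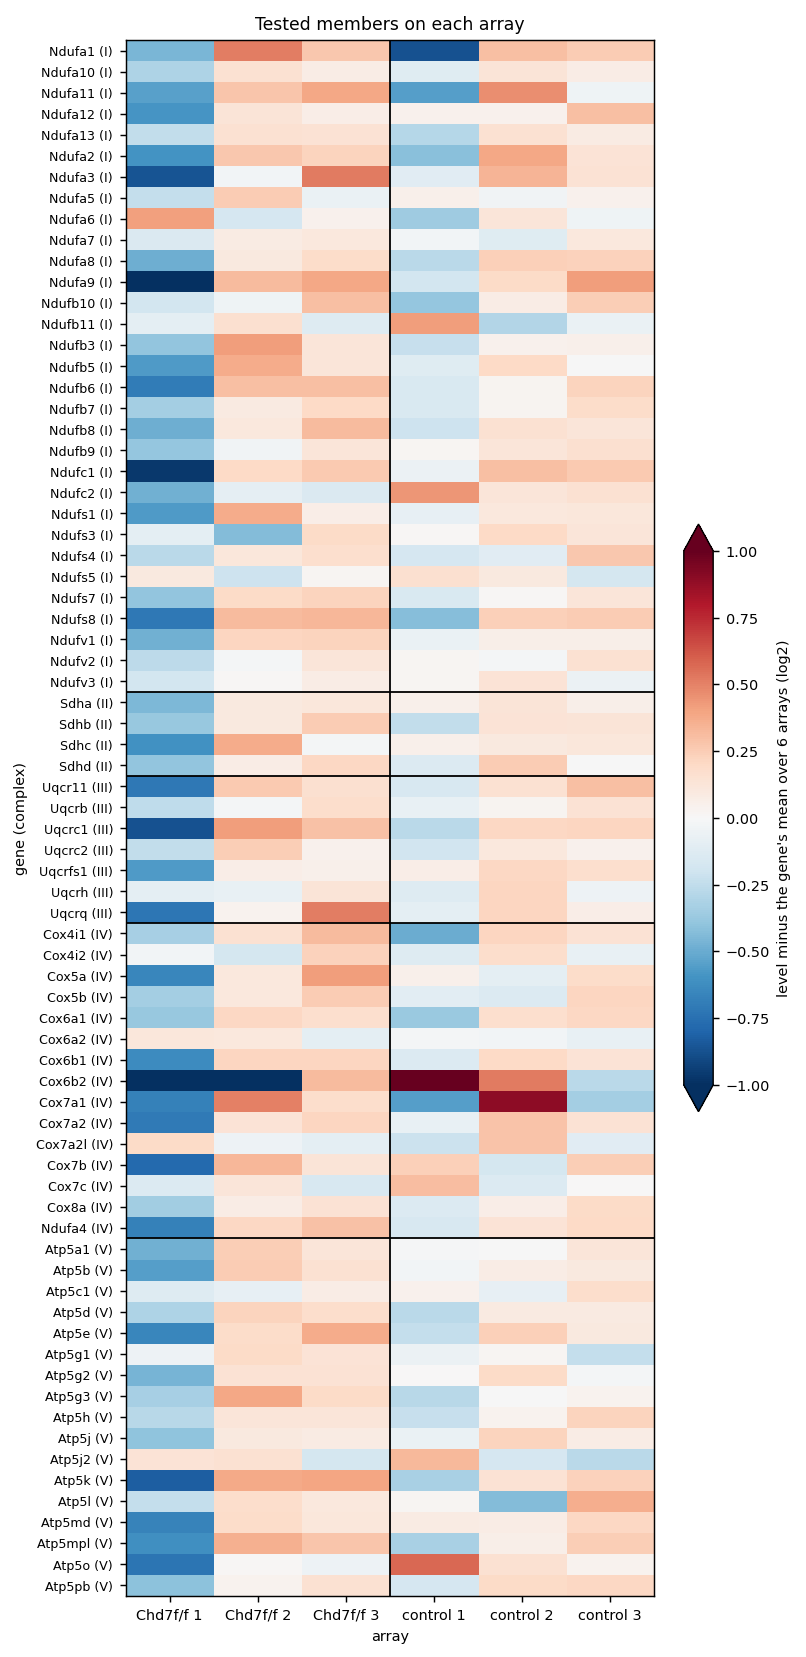
Each of the 74 tested members (rows, with its complex in brackets) on the 6 arrays (columns, Chd7f/f to the left of the black line), as the log2 level minus the gene's mean over the arrays; colours saturate at 1 in either direction. The column of Chd7f/f replicate 1 is blue for most rows of every complex, and Cox6b2 is red in control replicate 1.

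Other mitochondrial genes were also low on Chd7f/f replicate 1. The enzymes of the tricarboxylic acid cycle, which supply electrons to complexes I and II, were listed together with subunits of pyruvate dehydrogenase. This list averaged -0.44, 0.21 and 0.07 in the Chd7f/f samples, against -0.01, 0.05 and 0.12 in the controls, over 15 tested of 16 listed. None passed the test, with 1 higher and 14 lower and a mean difference of -0.11. Without Chd7f/f replicate 1 the list had 13 higher and 2 lower and a mean difference of 0.09, so its direction, too, rests on that array. Idh3b, a subunit of isocitrate dehydrogenase, differed by -0.24 (SE 0.19) and Pdhb, a subunit of pyruvate dehydrogenase, by -0.16 (SE 0.13). Complex I assembly factors averaged -0.32 on that array and between -0.09 and 0.18 elsewhere, and 0 of 14 passed, with 4 higher and 10 lower. Ecsit differed by -0.16 (SE 0.19) and Ndufaf2 by 0.13 (SE 0.13). Assembly factors of complexes II to V averaged -0.27 there and between -0.0071 and 0.11 elsewhere, and 0 of 27 tested passed, with 10 higher and 17 lower. Sdhaf4, which helps to mature Sdha, differed by -0.30 (SE 0.13), and Atpaf1, a chaperone of the F1 head of complex V, by 0.18 (SE 0.12). Without Chd7f/f replicate 1 the complex I factors had 13 higher and 1 lower and those of complexes II to V 17 higher and 10 lower.

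Electron carriers and carriers of adenine nucleotides and phosphate were listed with the Vdac porin genes and Atpif1, which encodes an ATP synthase inhibitor. This list averaged -0.29 on Chd7f/f replicate 1 and between -0.04 and 0.13 elsewhere, and 0 of 11 tested passed, with 2 higher and 9 lower. Etfa, a subunit of the electron transfer flavoprotein, differed by -0.42 (SE 0.21), and Cycs, cytochrome c, by -0.24 (SE 0.17); without Chd7f/f replicate 1 the list had 6 higher and 5 lower. Regulators of mitochondrial biogenesis spanned a narrower range, averaging -0.10, 0.12 and 0.0082 in the Chd7f/f samples, against 0.10, -0.08 and -0.04 in the controls. None of 15 tested passed, with 10 higher and 5 lower, or 7 higher and 8 lower without Chd7f/f replicate 2 and 7 higher and 8 lower without control replicate 2. Tfb2m, a mitochondrial transcription factor, differed by 0.19 (SE 0.12) and Tfb1m, an rRNA methyltransferase of mitochondria, by -0.45 (SE 0.36). The mean of the genes of the response to low oxygen had another array at the bottom. It was 0.03, 0.35 and 0.0011 in the Chd7f/f samples, against -0.53, 0.12 and 0.03 in the controls. The list was not uniform: Hif1a, Vegfa, Slc2a1 and Egln3 were lowest on control replicate 1, while Pdk1 and Bnip3 were highest there. Ldha and Car9 were lowest on control replicate 3 and Lonp1 on Chd7f/f replicate 1. None of 9 tested passed, with 7 higher and 2 lower, and the mean difference of 0.25 was 0.05 without control replicate 1. Hif1a, an oxygen-regulated transcription factor, stood at 9.32, 9.60 and 9.02 in the Chd7f/f samples, against 8.15, 8.85 and 9.02 in the controls, a difference of 0.64 (SE 0.27), and Ldha, lactate dehydrogenase, differed by 0.29 (SE 0.16).

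Markers of dividing cells and of other cell types also differed between arrays. Proliferation genes averaged -1.49, 0.43 and 0.32 in the Chd7f/f samples, against 0.45, -0.11 and 0.39 in the controls, over 13 tested of 14, with 0 higher and 13 lower and none past the test; Mcm4 differed by -0.61 (SE 0.51) and Rrm2 by -0.77 (SE 0.69). Like the subunits, the proliferation genes were lowest on Chd7f/f replicate 1. Their highest mean, 0.45, was on control replicate 1, close to the 0.43 of Chd7f/f replicate 2. Without Chd7f/f replicate 1 the proliferation genes had 12 higher and 1 lower. Erythroid markers averaged -1.42, -0.17 and 0.51 in the Chd7f/f samples, against 1.72, -0.64 and 0.0036 in the controls, over 5 tested of 12 listed, with 0 higher and 5 lower; these 5 were Epb42, Tfrc, Slc4a1, Klf1 and Epor. Epb42 differed by -1.32 (SE 0.73) and Tfrc by -1.27 (SE 1.08). The erythroid mean difference of -0.73 was -0.19 without Chd7f/f replicate 1 and -0.05 without control replicate 1. Monocyte and macrophage markers averaged 0.27, -0.34 and 0.88 in the Chd7f/f samples, against -0.24, 0.12 and -0.71 in the controls, over 12 of 12, with 12 higher and 0 lower and none past the adjusted threshold. The differences ran from 0.00028 to 1.12. Mpeg1 differed by 1.12 (SE 0.38) and Ctss by 1.08 (SE 0.51). Their mean difference of 0.55 was 0.24 without Chd7f/f replicate 3, with 10 higher and 2 lower. It was 0.33 without control replicate 3, with 9 higher and 3 lower, and between 0.55 and 0.85 without any other single array. The mean level of the tested T and NK cell markers, 4 of 10 listed, was between 4.29 and 4.73, near the filter level of 4.13; Cd8a differed by 0.24 (SE 0.24) and Cd3d by -0.05 (SE 0.14). That of the B cell markers, 5 of 7 tested, was between 4.56 and 5.16; Cd79b differed by -0.28 (SE 0.20) and Cd79a by -0.67 (SE 0.57). Genes of leukemia identity averaged 0.55, -0.21 and 0.08 in the Chd7f/f samples, against -0.03, -0.02 and -0.37 in the controls, over 8 of 8, with 6 higher and 2 lower and none past the test. The part of these cells or of cell division in the level of the subunits was not tested.

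Complex I has a peripheral arm that oxidises NADH and reduces ubiquinone and a membrane arm that pumps protons. On Chd7f/f replicate 1 the NADH-oxidising module averaged -0.30 over 9 genes, the ubiquinone-reducing module -0.51 over 5 and the membrane arm -0.44 over 17. Ndufc2, a small subunit of the membrane arm, stood at 9.27, 9.65 and 9.60 in the Chd7f/f samples, against 10.18, 9.87 and 9.90 in the controls. Every Chd7f/f value lay below every control value, with a difference of -0.48 (SE 0.16; limma, unadjusted p = 0.0234, adjusted p = 0.9998). Leaving out Chd7f/f replicate 1 gave -0.36, leaving out control replicate 1 -0.38 and leaving out both -0.26.

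Ndufa9, an accessory subunit of the ubiquinone-reducing module, stood at 8.26, 9.70 and 9.77 in the Chd7f/f samples, against 9.21, 9.57 and 9.81 in the controls, and a single low array accounts for most of its range of 1.55. Ndufa3, of the membrane arm, stood at 9.70, 10.54 and 11.08 in the Chd7f/f samples, against 10.45, 10.90 and 10.71 in the controls, with both ends of the range in Chd7f/f samples. Ndufa1, an X-linked subunit of the membrane arm, stood at 8.82, 9.78 and 9.54 in the Chd7f/f samples, against 8.40, 9.57 and 9.52 in the controls, low on both arrays numbered 1, and its difference of 0.21 (SE 0.40) was -0.17 without control replicate 1. Some members did not share the common pattern: over the 6 arrays Ndufs5, Atp5j2 and Ndufa6 had Pearson correlations of -0.54, -0.54 and -0.50 with the mean of the common subunits, given as a description. Ndufa6, a subunit with a LYR motif, stood at 10.09, 9.51 and 9.72 in the Chd7f/f samples, against 9.32, 9.80 and 9.64 in the controls, highest on the array that was lowest for most members, with a difference of 0.19 (SE 0.20). That was 0.03 without Chd7f/f replicate 1, 0.06 without control replicate 1 and -0.10 without both. Ndufb9, which also has a LYR motif, differed by -0.20 (SE 0.16). Ndufs5, at a mean of 4.34 just above the filter, differed by -0.06 (SE 0.15). The differences of the 31 genes ran from -0.48 to 0.21, and none passed the test.

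Complex II is also an enzyme of the tricarboxylic acid cycle and is encoded entirely in the nucleus. Sdha, the flavoprotein that oxidises succinate, stood at 10.42, 10.97 and 10.99 in the Chd7f/f samples, against 10.93, 11.00 and 10.93 in the controls. Sdhb, the iron-sulfur subunit, stood at 7.61, 8.08 and 8.24 in the Chd7f/f samples, against 7.74, 8.12 and 8.11 in the controls. These 2 subunits form the catalytic head, and both were lowest on Chd7f/f replicate 1. Of the membrane anchors, Sdhc stood at 8.50, 9.47 and 9.09 in the Chd7f/f samples, against 9.16, 9.20 and 9.22 in the controls. Sdhd stood at 9.84, 10.31 and 10.44 in the Chd7f/f samples, against 10.10, 10.48 and 10.22 in the controls. Both were again lowest on Chd7f/f replicate 1, and for all 4 genes the genotypes overlapped. The differences were -0.16 (SE 0.18) for Sdha, -0.01 (SE 0.21) for Sdhb, -0.17 (SE 0.25) for Sdhc and -0.07 (SE 0.20) for Sdhd.

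In complex III the Rieske iron-sulfur protein gene Uqcrfs1 stood at 6.86, 7.49 and 7.47 in the Chd7f/f samples, against 7.49, 7.63 and 7.59 in the controls. The genotypes did not overlap, but the highest Chd7f/f and the lowest control value are equal at this precision. The difference was -0.30 (SE 0.20) with all arrays and -0.09 without Chd7f/f replicate 1. Uqcr11, a small accessory subunit, stood at 6.08, 7.06 and 6.95 in the Chd7f/f samples, against 6.63, 6.94 and 7.09 in the controls. Its values overlapped, and the difference of -0.19 (SE 0.29) was 0.12 without Chd7f/f replicate 1. Uqcrc2, a core subunit, differed by 0.03 (SE 0.17) and was the one member of complex III on the higher side. The accessory subunits Uqcrq and Uqcrb differed by -0.12 (SE 0.31) and -0.07 (SE 0.15).

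In complex V, Atp5o encodes the oligomycin sensitivity conferring protein, which joins the F1 head to the peripheral stalk. It stood at 5.13, 5.88 and 5.81 in the Chd7f/f samples, against 6.44, 6.01 and 5.90 in the controls. The genotypes did not overlap, with Chd7f/f replicate 2 just below control replicate 3, and the difference was -0.51 (SE 0.25). It was -0.27 without Chd7f/f replicate 1, -0.27 with array weights and -0.11 without both arrays numbered 1. The 4 peripheral stalk genes averaged a difference of -0.21, with 0 higher and 4 lower, and the 5 genes of the F1 head -0.05. Without Chd7f/f replicate 1 these were -0.03, with 3 higher and 1 lower, and 0.15; the 1 stalk gene then lower was Atp5o. Atp5b, the catalytic beta subunit, stood at 11.71, 12.52 and 12.42 in the Chd7f/f samples, against 12.24, 12.34 and 12.36 in the controls. The control values were close together and Chd7f/f values lay on both sides of them. The c subunits of the rotor ring come from 3 genes that encode the same mature protein. Atp5g1 differed by 0.18 (SE 0.13), Atp5g3 by 0.16 (SE 0.21) and Atp5g2 by -0.11 (SE 0.20). Of the small membrane subunits, Atp5md differed by -0.25 (SE 0.24) and Atp5j2, the f subunit, by 0.07 (SE 0.20) at a mean of 4.92.

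In complex IV, Cox6b2 varied the most of all tested members. It encodes the isoform of subunit 6B known from testis, and stood at 5.51, 5.50 and 7.22 in the Chd7f/f samples, against 9.15, 7.42 and 6.64 in the controls, a range of 3.66. The controls were higher except that Chd7f/f replicate 3 lay above control replicate 3, and the difference of -1.66 (SE 0.76) did not pass the test (limma, unadjusted p = 0.0697, adjusted p = 0.9998). It was -0.95 without control replicate 1, -0.68 with array weights and -0.67 without both arrays numbered 1. It was -2.23 without Chd7f/f replicate 3 and -2.21 without control replicate 3. The erythroid markers averaged -1.42, -0.17 and 0.51 in the Chd7f/f samples, against 1.72, -0.64 and 0.0036 in the controls. Cox6b2 and the erythroid mean were both highest on control replicate 1. Among the erythroid markers, Epb42, Tfrc and Slc4a1 were highest on that array, but Klf1 was highest on control replicate 3 and Epor on Chd7f/f replicate 2. Cox6b2 was lowest on Chd7f/f replicate 2 and the erythroid mean on Chd7f/f replicate 1. The part of erythroid cells in the level of Cox6b2 was not tested. Cox6b1, the common isoform, stood at 9.00, 9.85 and 9.85 in the Chd7f/f samples, against 9.50, 9.83 and 9.77 in the controls, with the low first Chd7f/f array of most subunits and a difference of -0.13 (SE 0.26).

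Cox7a1, the heart and skeletal muscle isoform of subunit 7A, stood at 4.27, 5.45 and 5.11 in the Chd7f/f samples, against 4.39, 5.83 and 4.60 in the controls. Its values varied within each genotype, and the difference was 0.0034 (SE 0.47). The common isoform Cox7a2 stood at 8.70, 9.54 and 9.62 in the Chd7f/f samples, against 9.33, 9.70 and 9.55 in the controls, a difference of -0.24 (SE 0.27). Cox7a2l, a relative known for joining complexes III and IV in supercomplexes, stood at 8.89, 8.65 and 8.60 in the Chd7f/f samples, against 8.48, 8.98 and 8.58 in the controls, and was not low on Chd7f/f replicate 1. Cox4i2, the isoform known from lung, stayed between 5.60 and 6.01, with a difference of 0.02 (SE 0.16). Its common counterpart Cox4i1 stood at 9.53, 10.01 and 10.18 in the Chd7f/f samples, against 9.37, 10.08 and 10.01 in the controls, low on both arrays numbered 1. Cox6a2, the heart and skeletal muscle isoform of subunit 6A, lay between 5.18 and 5.39, with a difference of 0.08 (SE 0.11).

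The remaining isoforms lay below the filter. Cox7b2, known from testis, had a mean of 2.64, Cox8b, of heart and skeletal muscle, 3.71, and Cox8c, of testis, 3.49. Ndufa4l2, a relative of the complex IV subunit Ndufa4 known to be induced by low oxygen, stood at 3.92, 3.59 and 3.91 in the Chd7f/f samples, against 4.75, 3.70 and 3.67 in the controls, above the filter level on control replicate 1 alone. The kept probe sets of the common counterparts were above the filter and lowest on Chd7f/f replicate 1: Cox7b lay between 8.10 and 9.21, Cox8a between 10.51 and 11.05 and Ndufa4 between 10.40 and 11.36. For Cox7b a second probe set, the one numbered among X-linked neighbours, had a mean of 4.29, close to the filter level. It stood at 4.38, 4.11 and 4.12 in the Chd7f/f samples, against 4.33, 4.30 and 4.52 in the controls, and was lowest on Chd7f/f replicate 2. The differences of the kept probe sets were -0.21 (SE 0.31), -0.08 (SE 0.18) and -0.11 (SE 0.28).

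**Figure D4:**
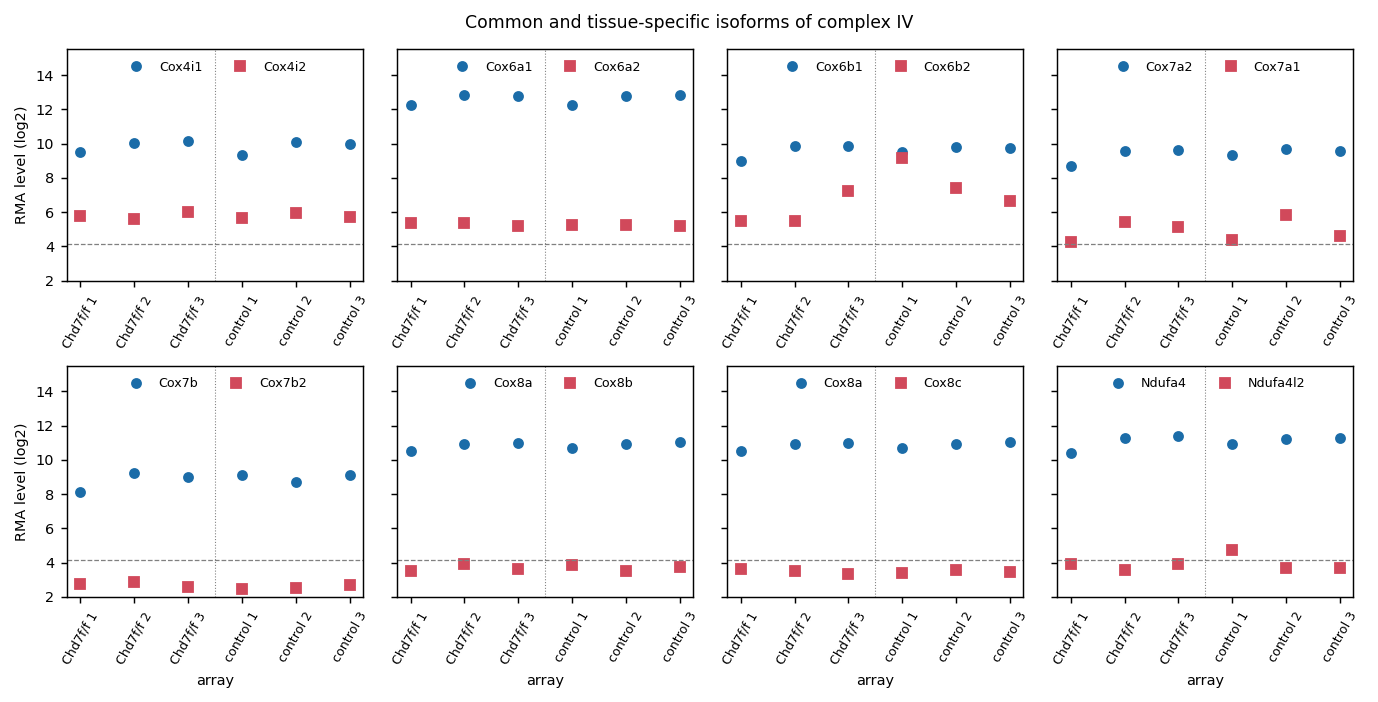
RMA level (log2) on the 6 arrays of the common isoform (blue circles) and the tissue-specific isoform (red squares) of 7 complex IV subunits, Cox8a being shown with both of its relatives; the dashed line is the filter level of 4.13. Levels of different probe sets are not comparable as amounts; Cox6b2 and Cox7a1 vary between arrays, and Cox7b2, Cox8b and Cox8c lie below the line on every array.

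Promoter sequences were set beside the pattern that most subunits shared. RefSeq windows (GRCm38.p6, 250 bases before to 50 after the start of a gene) were found for 64 of the 78 coding members, 69 windows in all. CGCATGCG, a core of the motif of NRF1, a factor known for binding respiratory chain genes, was present on either strand in 13% of the members' windows, against 1.87% of all 32851 windows and 2.52% of those of protein-coding genes. CCGGAAG, an ETS core of the kind GABPA binds, was in 24.6%, against 8.86% and 11.6%. AAGATGGC, a YY1 core, was in 13%, against 2.75% and 3.05%. GGGCGG, an SP core, was in 40.6%, against 35.7% and 46.2%. Of the 4 windows of tissue-specific isoforms, 0 held the NRF1, ETS or YY1 letters and 2 those of SP. These are matches of letters, counted without a test, in which motifs may overlap.

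The windows printed here are those of the isoform pair Cox6b2 and Cox6b1, of Ndufc2 as the member with the smallest p, of Cox6a1 and Uqcr11 as members with NRF1 and ETS letters, and of Ndufa9 as a member with YY1 letters. They run 5′ to 3′ on the strand of the gene, and capitals mark matches to the 4 motifs on either strand. Cox6b2 lies at chr7:4753045-4753344 (minus strand), Cox6b1 at chr7:30626065-30626364 (minus strand) and Ndufc2 at chr7:97399753-97400052 (plus strand). Cox6a1 lies at chr5:115348909-115349208 (minus strand), Uqcr11 at chr10:80406772-80407071 (minus strand) and Ndufa9 at chr6:126849095-126849394 (minus strand).
Cox6b2: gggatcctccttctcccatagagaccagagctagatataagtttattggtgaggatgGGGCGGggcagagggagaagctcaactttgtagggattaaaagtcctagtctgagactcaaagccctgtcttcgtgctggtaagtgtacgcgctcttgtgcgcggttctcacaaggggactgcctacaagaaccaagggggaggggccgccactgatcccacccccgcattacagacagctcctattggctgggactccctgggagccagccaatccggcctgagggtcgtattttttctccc
Cox6b1: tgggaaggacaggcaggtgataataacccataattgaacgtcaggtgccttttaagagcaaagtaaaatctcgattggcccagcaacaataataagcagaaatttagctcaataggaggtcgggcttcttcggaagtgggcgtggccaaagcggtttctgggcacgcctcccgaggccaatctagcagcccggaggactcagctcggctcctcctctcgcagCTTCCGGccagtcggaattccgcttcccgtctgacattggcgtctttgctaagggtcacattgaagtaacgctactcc
Ndufc2: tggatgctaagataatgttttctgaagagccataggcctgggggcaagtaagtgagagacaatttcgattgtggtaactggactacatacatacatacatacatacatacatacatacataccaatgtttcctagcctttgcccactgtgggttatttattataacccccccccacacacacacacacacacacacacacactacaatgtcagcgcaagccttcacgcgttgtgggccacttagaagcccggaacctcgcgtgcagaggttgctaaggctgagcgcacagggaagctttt
Cox6a1: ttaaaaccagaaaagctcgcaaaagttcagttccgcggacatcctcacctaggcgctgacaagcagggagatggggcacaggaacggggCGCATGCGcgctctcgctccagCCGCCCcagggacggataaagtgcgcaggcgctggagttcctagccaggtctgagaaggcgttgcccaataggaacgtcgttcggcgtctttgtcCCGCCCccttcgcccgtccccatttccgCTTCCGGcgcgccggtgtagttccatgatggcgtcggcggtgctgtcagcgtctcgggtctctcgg
Uqcr11: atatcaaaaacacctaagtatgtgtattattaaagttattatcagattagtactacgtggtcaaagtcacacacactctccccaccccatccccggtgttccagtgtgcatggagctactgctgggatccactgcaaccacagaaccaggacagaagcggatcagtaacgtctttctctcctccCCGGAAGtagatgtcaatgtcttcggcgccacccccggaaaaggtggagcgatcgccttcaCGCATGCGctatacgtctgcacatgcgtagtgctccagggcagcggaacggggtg
Ndufa9: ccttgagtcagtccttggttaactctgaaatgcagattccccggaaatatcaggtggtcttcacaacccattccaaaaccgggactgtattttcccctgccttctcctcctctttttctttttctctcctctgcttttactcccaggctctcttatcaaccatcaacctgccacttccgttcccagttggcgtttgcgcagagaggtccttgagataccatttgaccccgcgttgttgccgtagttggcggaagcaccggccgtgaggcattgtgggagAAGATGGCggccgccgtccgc

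The Cox6b2 window held SP letters alone and the Cox6b1 window ETS letters alone. The Ndufc2 window held none of the 4, which says only that these letters are not in this window. Cox6a1, whose window held NRF1, SP and ETS letters, stood at 12.25, 12.84 and 12.79 in the Chd7f/f samples, against 12.26, 12.80 and 12.83 in the controls, low on both arrays numbered 1. Ndufa9 and Uqcr11, given above, were lowest on Chd7f/f replicate 1.

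Outside the members, the tested genes whose pattern over the 6 arrays was most like the mean of the 69 common subunits were Mtfp1, Txnl4b and Cpt2, with Pearson correlations of 0.999, 0.999 and 0.997, given as a description. They were picked for this likeness from all tested genes, and the arrays share their normalization. Mtfp1 stood at 6.46, 7.56 and 7.62 in the Chd7f/f samples, against 7.09, 7.50 and 7.56 in the controls, with the same low first Chd7f/f array.

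Many of these genes have processed copies elsewhere in the genome, and RefSeq lists 18 pseudogenes with such a symbol. More than 1 single-gene probe set was present for 9 members. Of the probe sets not kept, those of Atp5g2, Cox5b and Ndufa12 were lowest on Chd7f/f replicate 1. Those of Atp5d, Atp5e, Atp5h, Cox7b, Ndufa8 and Ndufa11 were not, and that of Ndufa11 was highest there, at 5.91. The kept probe sets of Atp5g2, Atp5h, Cox5b and Uqcrb, 4 in all, stand in the platform's numbering among probe sets of other chromosomes, with 0 of 20 neighbours on the chromosome of the gene itself. That of Cox5b, a gene of chromosome 1, has its 20 neighbours on chromosome 13, where RefSeq lists Cox5b-ps, and had a mean of 10.78, while the Cox5b probe set among chromosome 1 neighbours had 4.32. For Atp5h, a gene of chromosome 11, the kept probe set, with neighbours on chromosome 15, had a mean of 11.93 and the other 5.26. The 2 probe sets of Atp5g2 had means of 11.48 and 11.19. The kept probe sets of Cox7b and Ndufa11 had 1 neighbour each on the chromosome of the gene, of 18 and 20. That of Cox7b had a mean of 8.87, against 4.29 for the probe set with all 20 neighbours on the X chromosome. That of Ndufa11, a gene of chromosome 17, had 9 neighbours on chromosome 16, where RefSeq lists the pseudogene Ndufa11b, and a mean of 9.24, against 5.57 for the probe set among chromosome 17 neighbours. For Cox5b and Ndufa11 the signal of the gene and of the listed copy cannot be told apart; for Atp5g2, Atp5h, Cox7b and Uqcrb no copy stands among the 18, and what the kept probe sets measure was not tested.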

How the data were processed

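The authors deposited 1 log2 value per probe set for each of 6 samples. The submitters' processing notes name RMA and Affymetrix Expression Console, with no version listed for either. The labelling protocol names a human array version, the design text a mouse Gene 2.0 ST array, and mouse genes are annotated to the probe sets. The design text calls the samples independent without tying each to 1 mouse, so a p-value reflects the spread among the arrays, which may be technical. The table holds 41345 probe sets, 23521 with 1 gene symbol in the platform annotation, 1814 with several and 16010 with none listed. Detection calls were not used, and the small number of arrays limits precision.

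Symbols were updated by Entrez identifier through RefSeq (GRCm38.p6). The highest-mean probe set of each gene was kept, and the 15526 genes whose mean reached 4.13, the 30th percentile over named genes, were tested. Tests were two-sided, with limma 3.58.1 (lmFit and eBayes) under R 4.3.3 and Benjamini-Hochberg adjustment over all tested genes. With 3 arrays in each genotype the smallest exact permutation p is 0.1. The fit was tested on simulated data for Chd7f/f against control over 15526 genes and recovered 30.2% of those shifted by a log2 value of 1 and 77.6% of those shifted by 2. The simulated noise was independent between genes and arrays. These rates therefore do not cover variation that many genes share on an array.

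Common subunits leave out tissue-specific isoforms and Cox7a2l. Named genes are those of complex II, the isoforms, the 2 smallest p on each side and the highest and lowest level in each other complex, the 5 widest ranges, 2 genes of most lists and the 3 most alike outside genes. Atp5g2, Atp5h, Cox5b, Ndufa11, Ndufb11, Slc4a1, Klf1, Epor and genes behind counts of 5 or fewer were added after their values were seen. Vegfa, Slc2a1, Egln3, Pdk1, Bnip3, Car9, Lonp1 and Atpif1 were added in the same way. The members and lists were chosen with earlier results of these data known. Deviations of same-numbered samples correlated at 0.03, -0.02 and 0.03 across genes, so the numbers were not taken as pairs.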

Additional observations from a re-analysis of the deposited data

How the results depend on the processing

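No member passed an adjusted p of 0.05 (limma) under any of the alternatives tried: a second quantile normalization, median centring, no filter, a filter at the median level, averaging probe sets, a trended robust prior, array weights, the replicate block, leaving out each array in turn, and leaving out both arrays numbered 1, which was chosen after seeing the data. The count at an unadjusted p under 0.05 was 1 with all arrays (all genes 1.84%). It was 0 with the replicate block (all genes 2.14%) and 0 without both arrays numbered 1 (all genes 2.39%). When 1 array was left out it was 0 to 2 (all genes 1.74% to 3.07%). The count of members without overlap between genotypes was 3 with all arrays, where 6.81% of all genes had no overlap. It was 2 with median centring and 3 under the other alternatives that kept all arrays. Leaving out 1 array gave 5 to 18, where 13.8% to 18.4% of all genes had no overlap. Leaving out both arrays numbered 1 gave 21, where 28.5% had none. The 18 came without Chd7f/f replicate 1. The median difference of the members, -0.07 with all arrays, was 0.12 without Chd7f/f replicate 1, 0.05 without both arrays numbered 1 and 0.03 with array weights, and below 0 under the other alternatives, down to -0.16. Of 507 differences of the 34 tested named members under alternatives, 68 had the other sign, 2 of them where the difference exceeded its standard error. The sign turned in at least 1 setting for 26 of the 34 named members. The replicate block moved no other call. Causes were not tested.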
